A study of Rattus norvegicus with 11 samples.

Results

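The 43 genes described here build, cut and regulate the extracellular matrix of the kidney, or mark its contractile and mesenchymal cells. They were chosen by name, with earlier results of these data known, and hold fibrillar collagens, basement membrane proteins, other matrix proteins, matrix enzymes and inhibitors, growth factors with their receptors, and contractile and cytoskeletal genes. A probe was assigned to a gene through its transcript accession, and it was kept where its signal lay well above background on at least 2 arrays. For 36 of the 43 genes a probe was found in this way, and all 36 passed, among 25805 genes and unnamed probes tested in all. Col4a2, Col4a3, Col15a1, Lamb1, Nid1, Col6a1 and Lox, the other 7, were not analysed here.

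Kidney scarring is the build-up of collagens, fibronectin and other matrix between the tubules and in the glomerulus, where mesangial cells hold the capillaries together. Transforming growth factor beta, which is secreted in a latent form and stored on the matrix, is the best known inducer of matrix genes, and platelet-derived growth factor drives the division and migration of mesangial cells and pericytes. Diabetic kidneys are known for a thickened glomerular basement membrane and an expanded mesangium. Basement membranes are sheets of type IV collagen and laminin, whereas interstitial scar is made mainly of fibrillar collagens.

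The messenger RNA came from the renal cortex of Sprague Dawley rats and was measured on single-colour oligonucleotide arrays. The DM+RYGB group (2 arrays) had type 1 diabetes from streptozotocin, which kills the beta cells that make insulin, and underwent Roux-en-Y gastric bypass (RYGB), surgery that makes a small stomach pouch and joins it to a lower stretch of the bowel. The DM+Sham group (3 arrays) had the same diabetes and a sham operation. The Control+RYGB group (3 arrays) had the bypass without diabetes, and the Control+Sham group (3 arrays) had a sham operation only. Surgery followed 4 weeks after the start of diabetes, and the cortex was taken 4 weeks after surgery. Streptozotocin diabetes is a model of insulin lack. The labels do not give the animals' age or sex, and leave unsaid whether each replicate is another animal, so p-values measure only the spread between these samples, which may be technical.

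All values are log2 signals relative to the 75th percentile of their array, so that 0 is the level of a spot at that percentile, and levels of different probes are not set against each other. The pairs DM+Sham 2 and 3 and Control+RYGB 2 and 3 each differed by less than the noise of repeated spots, and each pair was counted as 1 sample. This left 2 samples in each of the DM+RYGB, DM+Sham and Control+RYGB groups and 3 in Control+Sham. The 2 DM+RYGB arrays differed from each other by a spread of 0.43 on the log2 scale, against 0.030 to 0.27 for pairs within the other groups and 0.46 to 0.96 for pairs of different groups. Scanning took 5 days, none of which had arrays of both Control+RYGB and Control+Sham, and all Control+RYGB arrays lay at 1 position of the slide, where none of the rest lay, so that position and group cannot be told apart there. The same position limit holds for diabetes in RYGB rats and for the interaction. All 7 markers of the proximal tubule, the main cell type of the cortex, lay well above background on every array, with summed signals of 60.2 and 110 times the 75th percentile in DM+RYGB, 99.7 to 125 in DM+Sham, 185 to 248 in Control+RYGB and 85 to 130 in Control+Sham. Of these 7 markers, 4 fell with RYGB in diabetic rats (median change -1.48), 5 fell with diabetes in RYGB rats (median -2.24) and 4 had a negative interaction. Their part in the changes of the matrix genes in DM+RYGB was not tested.

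A gene was called, and is said to have risen or fallen, where its adjusted p lay under 0.05 with each of 3 scalings of the arrays (75th percentile, median and quantiles), always in 1 direction. In DM+Sham against Control+Sham rats, 12 of the 36 genes were called, of which 2 rose and 10 fell, where 13.2% of all genes tested were called. In DM+RYGB against DM+Sham rats, 14 were called (4 rose and 10 fell), where the share over all genes was 23.9%. On the 75th percentile scale alone 23 would have been called, where 52.9% of all genes were. In Control+RYGB against Control+Sham rats, 11 were called (1 rose and 10 fell), against 13.1% of all genes. In DM+RYGB against Control+RYGB rats, 17 were called (7 rose and 10 fell), against 19% of all genes. The interaction, which is the effect of RYGB in diabetic rats minus that in control rats, was called for 16 genes (10 positive and 6 negative), against 15.6% of all genes.

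Falls made up 10 of the 36 genes in each of these 4 comparisons, where 6.43%, 10.8%, 5.4% and 9.68% of all genes fell. Rises were 2, 4, 1 and 7 of the 36, where 6.73%, 13%, 7.73% and 9.29% of all genes rose. The interaction was positive for 7.58% of all genes and negative for 8.04%. The median change of the 36 genes was -0.26 with diabetes in sham rats, 0.23 with RYGB in diabetic rats, -0.097 with RYGB in control rats and 0.015 with diabetes in RYGB rats. Over all genes tested it was 0.027, 0.57, 0.29 and 0.27. Scaling moved these all-gene medians: for RYGB in diabetic rats it was 0.25 with median scaling and -0.058 with quantile scaling, for RYGB in control rats 0.17 and -0.044, and for diabetes in RYGB rats 0.047 and 0.008. A rise on the 75th percentile scale in a comparison with RYGB therefore includes a general shift, and for rises of the 36 genes in these comparisons the value minus the median of all genes is given too. Changes of other genes named further on are given without that subtraction. For the interaction, the median over all genes was 0.23.

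**Figure D1:**
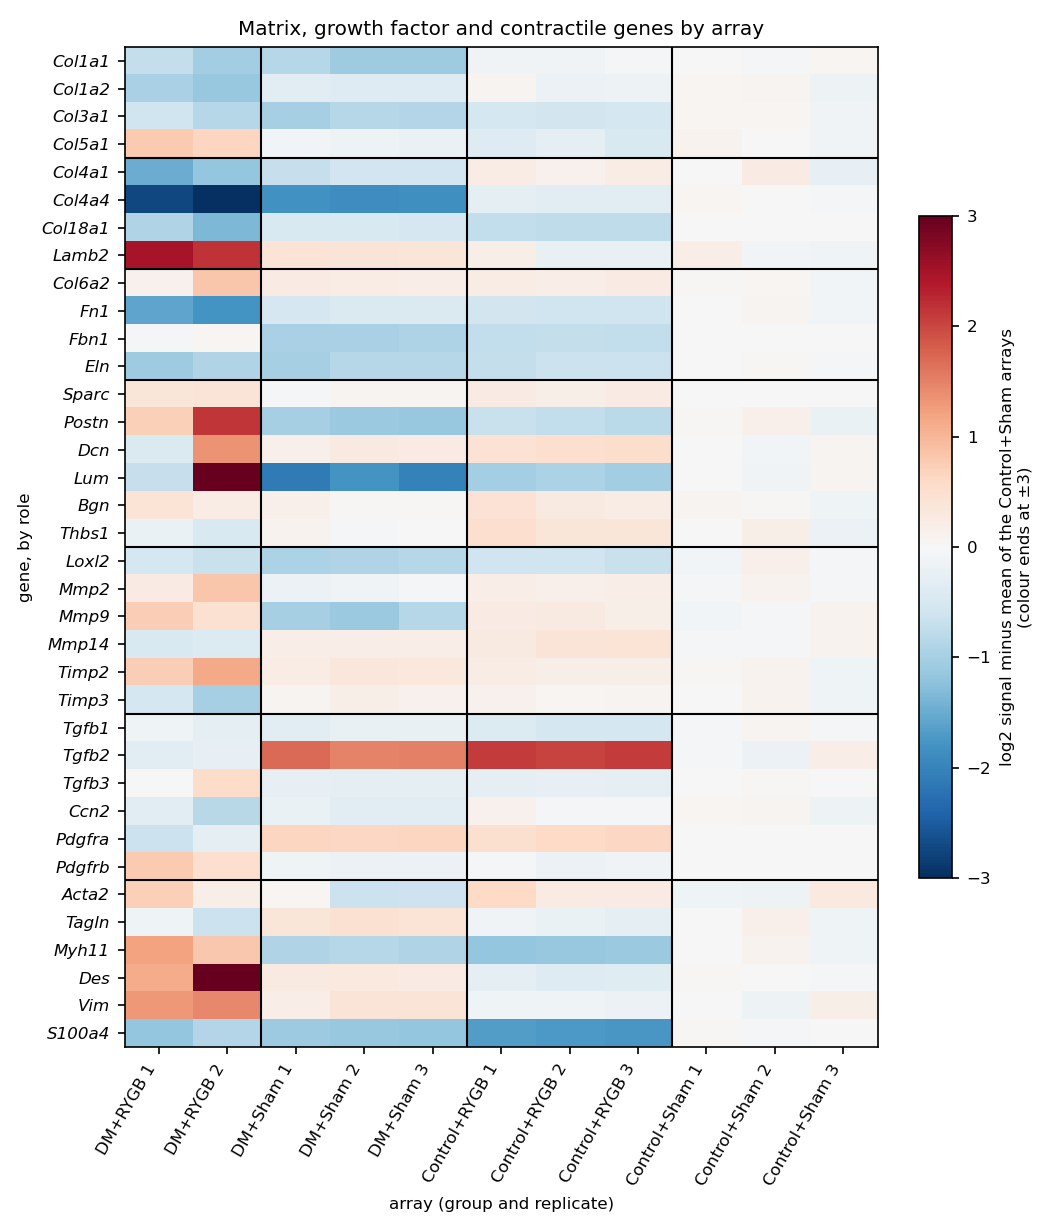
Log2 signal of the 36 genes (rows, grouped by role) on the 11 arrays (columns, grouped as DM+RYGB, DM+Sham, Control+RYGB and Control+Sham), as the difference from the mean of the 3 Control+Sham arrays, with colour ending at ±3. Tgfb2 is high in DM+Sham and Control+RYGB only, Col4a4 is lowest in DM+RYGB, and Lum and Des reach the end of the scale on DM+RYGB 2 but not on DM+RYGB 1.

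Of the 36 genes, 25 were called in at least 1 of the 5 comparisons and 11 in none, and 3 were called in all 5: Tgfb2, Fn1 and Myh11. Each of these 3 has a pair of probes, of which both Myh11 probes read highest in DM+RYGB and next in Control+Sham, while the Tgfb2 probes differed in order. For every called gene and each of the first 4 comparisons, the samples of the groups compared did not overlap. That held for many genes that were not called as well: 30, 30, 28 and 30 of the 36 did not overlap in the 4 comparisons, where 55.3%, 77.8%, 69.7% and 67.9% of all genes did not.

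Among the growth factors and receptors, Tgfb2 had the largest called interaction of the 36 genes. It encodes transforming growth factor beta 2, a ligand of the same receptors as Tgfb1. Probe A_43_P12532, which stood for the gene, read -5.32 and -5.26 in DM+RYGB, -3.31, -3.52 and -3.50 in DM+Sham, -2.91, -2.98 and -2.90 in Control+RYGB, and -5.05, -5.18 and -4.80 in Control+Sham. It was low in both DM+RYGB arrays and in all Control+Sham arrays, high in DM+Sham and highest in Control+RYGB, and no array of a high group reached one of a low group. Tgfb2 rose by 1.60 (SE 0.14, adjusted p 0.000897) with diabetes in sham rats and by 2.08 (SE 0.14, adjusted p 0.000541) with RYGB in control rats, which is 1.79 above the median of all genes. It fell with RYGB in diabetic rats, with a change of -1.88 (SE 0.15, adjusted p 0.000508), and with diabetes in RYGB rats, at -2.36 (SE 0.15, adjusted p 0.000265). The interaction was -3.97 (SE 0.20, adjusted p 0.000247).

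The other Tgfb2 probe, A_64_P236342, gave another picture. It read -3.57 and -3.63 in DM+RYGB, -4.69, -5.17 and -5.19 in DM+Sham, -4.48, -3.75 and -4.30 in Control+RYGB, and -5.30, -5.42 and -4.63 in Control+Sham. It was highest in DM+RYGB, where the probe above was lowest, and the DM+Sham and Control+Sham arrays overlapped. None of its changes was called: 0.18 with diabetes in sham rats, 1.33 with RYGB in diabetic rats (SE 0.31, adjusted p 0.0123 on the 75th percentile scale), 0.86 with RYGB in control rats and 0.65 with diabetes in RYGB rats. Both probes are dim. Before scaling, A_43_P12532 had 40.4 and 41.9 signal units in DM+RYGB, 233.1 to 313.7 in DM+Sham, 383.5 to 460.5 in Control+RYGB and 42.6 to 159.3 in Control+Sham. On days that held both groups, A_43_P12532 differed by 1.87 and 1.28 with diabetes in sham rats, by -1.82 with RYGB in diabetic rats and by -2.41 and -2.32 with diabetes in RYGB rats. With normexp background correction the fall of Tgfb2 with RYGB in diabetic rats was lost and its sign turned (0.20, adjusted p 0.8). Both probes carry the same transcript accession, and which stretch of the transcript each binds is not given in the sources used here.

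**Figure D2:**
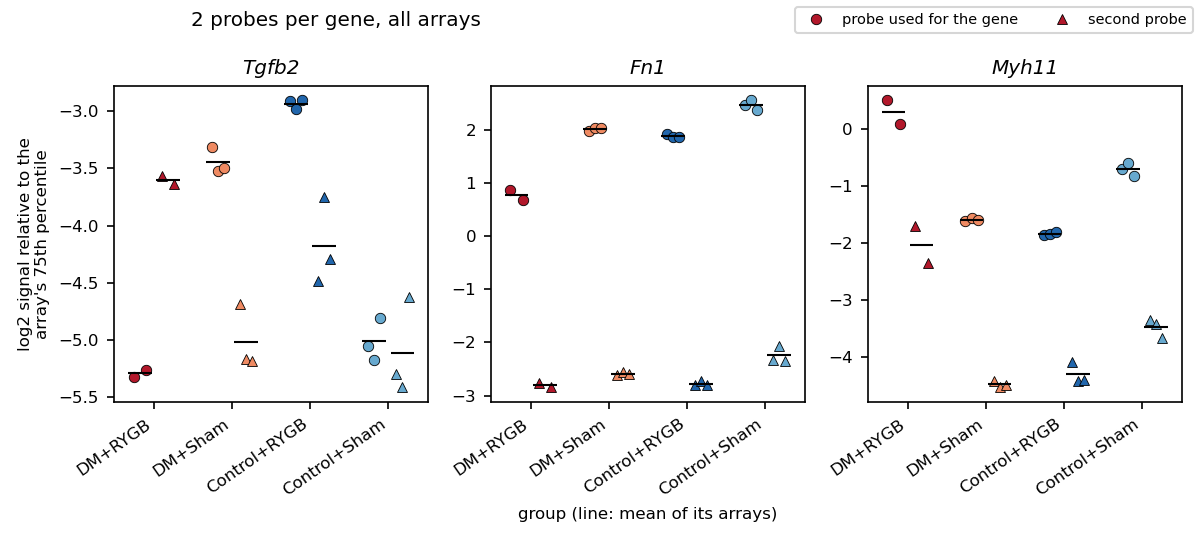
Log2 signal relative to the 75th percentile of the array for the 2 probes of Tgfb2, Fn1 and Myh11 (circles: the probe that stood for the gene, triangles: the second probe), 1 point per array and a line at the mean of each group. The Tgfb2 probes are ordered differently over the groups, the Fn1 probes differ in DM+RYGB, and the Myh11 probes show the same order of DM+RYGB above Control+Sham above the other groups.

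The promoter of Tgfb2 is shown because this gene had the largest called interaction. It lies on chromosome 13 of the rat genome GRCr8, at chr13:100792636-100792935 on the minus strand, and the window runs from 250 bases before to 50 after the start in RefSeq. Both strands were searched for the TATA box (letters TATAAA, held by 14.2% of the 33469 promoters of the table), the CCAAT box (letters CCAAT, 37.5%), the GC box (letters GGGCGG, 33.1%) and the cyclic AMP element (letters TGACGTCA, 1.83%), which do not overlap one another here, and this window held none of them.
Tgfb2: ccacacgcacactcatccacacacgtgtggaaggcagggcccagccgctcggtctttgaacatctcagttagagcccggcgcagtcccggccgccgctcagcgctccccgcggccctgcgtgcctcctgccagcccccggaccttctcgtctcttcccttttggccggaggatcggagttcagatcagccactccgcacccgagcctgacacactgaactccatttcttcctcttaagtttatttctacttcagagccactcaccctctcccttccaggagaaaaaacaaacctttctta

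Tgfb1, the major form in most tissues, fell with RYGB in control rats only, at -0.47 (SE 0.11, adjusted p 0.0255). Its values were -5.78 and -5.95 in DM+RYGB, -5.98, -5.88 and -5.87 in DM+Sham, -6.06, -6.18 and -6.19 in Control+RYGB, and -5.70, -5.58 and -5.69 in Control+Sham. The Control+RYGB arrays lay lowest and Control+Sham highest, within a narrow range. The Tgfb1 probe is dim, though well above background on all 11 arrays. With quantile scaling the change of Tgfb1 was -1.06 (adjusted p 0.0058) with RYGB in control rats and -1.09 (adjusted p 0.00241) with RYGB in diabetic rats, where the 75th percentile gave 0.061 (adjusted p 0.678). Tgfb3 and Ccn2 (connective tissue growth factor, a matrix-bound mediator that is induced by transforming growth factor beta) were called in none of the comparisons, with changes from -0.26 to 0.53 for Tgfb3 and from -0.62 to 0.033 for Ccn2.

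The receptors of platelet-derived growth factor moved in opposite directions with RYGB in diabetic rats. Pdgfra, the alpha receptor of mesenchymal cells, read -0.022 and 0.36 in DM+RYGB, 1.27, 1.25 and 1.27 in DM+Sham, 1.11, 1.23 and 1.24 in Control+RYGB, and 0.64, 0.61 and 0.63 in Control+Sham. It was lowest in DM+RYGB and higher in DM+Sham and Control+RYGB than in Control+Sham. Pdgfra fell with RYGB in diabetic rats by 1.10 (SE 0.14, adjusted p 0.00189) and with diabetes in RYGB rats by 1.00 (SE 0.14, adjusted p 0.00326), and it rose with diabetes in sham rats by 0.64 (SE 0.13, adjusted p 0.0211). That rise was not called without Control+Sham 1, 2 or 3 in turn, and the call depended on samples of other groups too. Its size was 0.629 to 0.646 over all leave-outs. Pdgfrb, the beta receptor of mesangial cells and pericytes, read 1.33 and 1.05 in DM+RYGB, 0.41, 0.38 and 0.38 in DM+Sham, 0.50, 0.38 and 0.43 in Control+RYGB, and 0.56, 0.56 and 0.53 in Control+Sham. Only DM+RYGB stood apart. Pdgfrb rose by 0.79 (SE 0.12, adjusted p 0.00328) with RYGB in diabetic rats, which is 0.22 above the median of all genes, and by 0.74 (SE 0.12, adjusted p 0.00588) with diabetes in RYGB rats, 0.47 above it. The interaction was -1.64 for Pdgfra and 0.89 for Pdgfrb, both called.

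Of the 4 fibrillar collagens, 2 fell and none rose with diabetes in sham rats, and 1 fell with RYGB in diabetic rats. Col1a1, the main chain of type I collagen, read -0.38 and -0.72 in DM+RYGB, -0.54, -0.74 and -0.73 in DM+Sham, 0.22, 0.21 and 0.26 in Control+RYGB, and 0.33, 0.27 and 0.37 in Control+Sham. Both diabetic groups lay below both control groups. Col1a1 fell by 0.96 (SE 0.13, adjusted p 0.00517) with diabetes in sham rats and by 0.78 (SE 0.14, adjusted p 0.00819) with diabetes in RYGB rats. Its second probe was not called in either, with changes of -0.43 and 0.41.

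Col1a2, the second chain of type I collagen, read 1.09 and 0.91 in DM+RYGB, 1.75, 1.68 and 1.67 in DM+Sham, 2.15, 1.88 and 1.90 in Control+RYGB, and 2.12, 2.14 and 1.91 in Control+Sham. It was low in DM+RYGB alone. Col1a2 fell by 0.71 (SE 0.15, adjusted p 0.00803) with RYGB in diabetic rats and by 1.02 (SE 0.15, adjusted p 0.00328) with diabetes in RYGB rats, and its change with diabetes in sham rats was -0.34, not called. Col3a1, of type III collagen, read 0.73 and 0.48 in DM+RYGB, 0.33, 0.47 and 0.47 in DM+Sham, 0.80, 0.78 and 0.82 in Control+RYGB, and 1.39, 1.39 and 1.22 in Control+Sham. Control+Sham lay highest, and Col3a1 fell by 0.93 (SE 0.12, adjusted p 0.00423) with diabetes in sham rats and by 0.54 (SE 0.12, adjusted p 0.0237) with RYGB in control rats.

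Col5a1 encodes a chain of type V collagen, which sets the width of collagen fibrils. It read -3.82 and -3.96 in DM+RYGB, -4.69, -4.76 and -4.80 in DM+Sham, -4.98, -4.90 and -5.06 in Control+RYGB, and -4.49, -4.61 and -4.69 in Control+Sham. In DM+RYGB it was the highest. Col5a1 rose by 1.08 (SE 0.12, adjusted p 0.0013) with diabetes in RYGB rats, 0.81 above the median of all genes, and fell by 0.38 (SE 0.11, adjusted p 0.0423) with RYGB in control rats. Its interaction was 1.22 (SE 0.16, adjusted p 0.00389). The change with RYGB in diabetic rats was 0.84, which did not pass under all scalings.

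The 4 basement membrane genes were all called with RYGB in diabetic rats, of which 3 fell and 1 rose. Col4a4 encodes a chain of the adult glomerular basement membrane made by podocytes. It read -0.73 and -1.35 in DM+RYGB, 0.19, 0.14 and 0.16 in DM+Sham, 1.69, 1.67 and 1.67 in Control+RYGB, and 2.06, 1.99 and 1.93 in Control+Sham. It was lowest in DM+RYGB, low in DM+Sham and higher in both control groups. Col4a4 fell by 1.83 (SE 0.18, adjusted p 0.00142) with diabetes in sham rats, by 1.21 (SE 0.20, adjusted p 0.0036) with RYGB in diabetic rats and by 2.72 (SE 0.20, adjusted p 0.000348) with diabetes in RYGB rats. In control rats the change with RYGB was -0.32, not called. Podocyte markers were highest in DM+RYGB: their summed level was 25.5 and 36 times the 75th percentile in DM+RYGB, 12.1 to 12.5 in DM+Sham, 12.6 to 12.8 in Control+RYGB and 10.9 to 11.7 in Control+Sham. Of 6 podocyte markers, none was called with diabetes in sham rats by limma (2 had an unadjusted p under 0.05), and 4 rose with RYGB in diabetic rats, with Nphs1 (nephrin) at 2.03 (adjusted p 0.000701). Their part in the results was not tested.

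Col4a1, the ubiquitous chain of type IV collagen, read 1.99 and 2.32 in DM+RYGB, 2.78, 2.90 and 2.90 in DM+Sham, 3.70, 3.61 and 3.70 in Control+RYGB, and 3.48, 3.73 and 3.23 in Control+Sham. It was lowest in DM+RYGB. Col4a1 fell by 0.69 (SE 0.19, adjusted p 0.0236) with RYGB in diabetic rats and by 1.52 (SE 0.19, adjusted p 0.00212) with diabetes in RYGB rats. Its second probe, A_64_P293606, read -3.15 and -4.26 in DM+RYGB, -4.46, -4.77 and -4.69 in DM+Sham, -3.45, -4.13 and -4.25 in Control+RYGB, and -4.10, -3.90 and -4.32 in Control+Sham and was called in no comparison. With RYGB in diabetic rats it changed by 0.90, and the mean of both probes gave 0.11 (adjusted p 0.694) in place of the fall.

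The type IV collagen genes lie in pairs that are read in opposite directions, and the promoters of Col4a1 and Col4a4 are shown because both genes fell in DM+RYGB. In RefSeq the starts of Col4a1 and Col4a2 lie 77 bases apart and those of Col4a3 and Col4a4 413 bases apart. The Col4a1 window is chr16:84885347-84885646 on the plus strand of GRCr8. Capitals mark 2 CCAAT boxes, read here as ATTGG because they lie on the other strand, and 2 GC boxes, as CCGCCC and GGGCGG. The Col4a4 window is chr9:91323528-91323827 on the minus strand, in which none of the 4 motifs was found. A match describes letters and not a bound site.
Col4a1: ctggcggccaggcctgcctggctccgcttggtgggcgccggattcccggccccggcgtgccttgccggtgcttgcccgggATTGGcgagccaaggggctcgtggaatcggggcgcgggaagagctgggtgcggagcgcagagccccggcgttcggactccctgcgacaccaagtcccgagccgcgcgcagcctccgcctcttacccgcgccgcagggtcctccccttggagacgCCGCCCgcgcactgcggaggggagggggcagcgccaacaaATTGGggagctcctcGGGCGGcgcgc
Col4a4: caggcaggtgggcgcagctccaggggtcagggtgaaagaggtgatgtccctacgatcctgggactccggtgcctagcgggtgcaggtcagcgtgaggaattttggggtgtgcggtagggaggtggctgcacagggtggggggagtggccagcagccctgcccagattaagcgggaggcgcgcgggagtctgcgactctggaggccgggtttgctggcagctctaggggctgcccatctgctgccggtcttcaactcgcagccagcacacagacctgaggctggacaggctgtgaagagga

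Col18a1 encodes type XVIII collagen, whose end fragment is endostatin. It read 0.11 and -0.34 in DM+RYGB, 0.56, 0.54 and 0.51 in DM+Sham, 0.26, 0.24 and 0.26 in Control+RYGB, and 1.02, 0.99 and 1.02 in Control+Sham. It was highest in Control+Sham and lowest on DM+RYGB 2. Col18a1 fell by 0.76 (SE 0.14, adjusted p 0.0149) with RYGB in control rats and by 0.66 (SE 0.16, adjusted p 0.0133) with RYGB in diabetic rats, where the change was -0.43 without DM+RYGB 2. Lamb2, the laminin beta 2 chain of the glomerular basement membrane, was highest in DM+RYGB. It read 0.40 and 0.091 in DM+RYGB, -1.67, -1.70 and -1.71 in DM+Sham, -1.89, -2.31 and -2.31 in Control+RYGB, and -1.88, -2.17 and -2.18 in Control+Sham. DM+RYGB stood far above the other groups. Lamb2 rose by 1.93 (SE 0.19, adjusted p 0.000873) with RYGB in diabetic rats, 1.36 above the median of all genes, and by 2.35 (SE 0.19, adjusted p 0.000542) with diabetes in RYGB rats, 2.08 above it. The interaction was 1.96 (SE 0.26, adjusted p 0.00412).

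**Figure D3:**
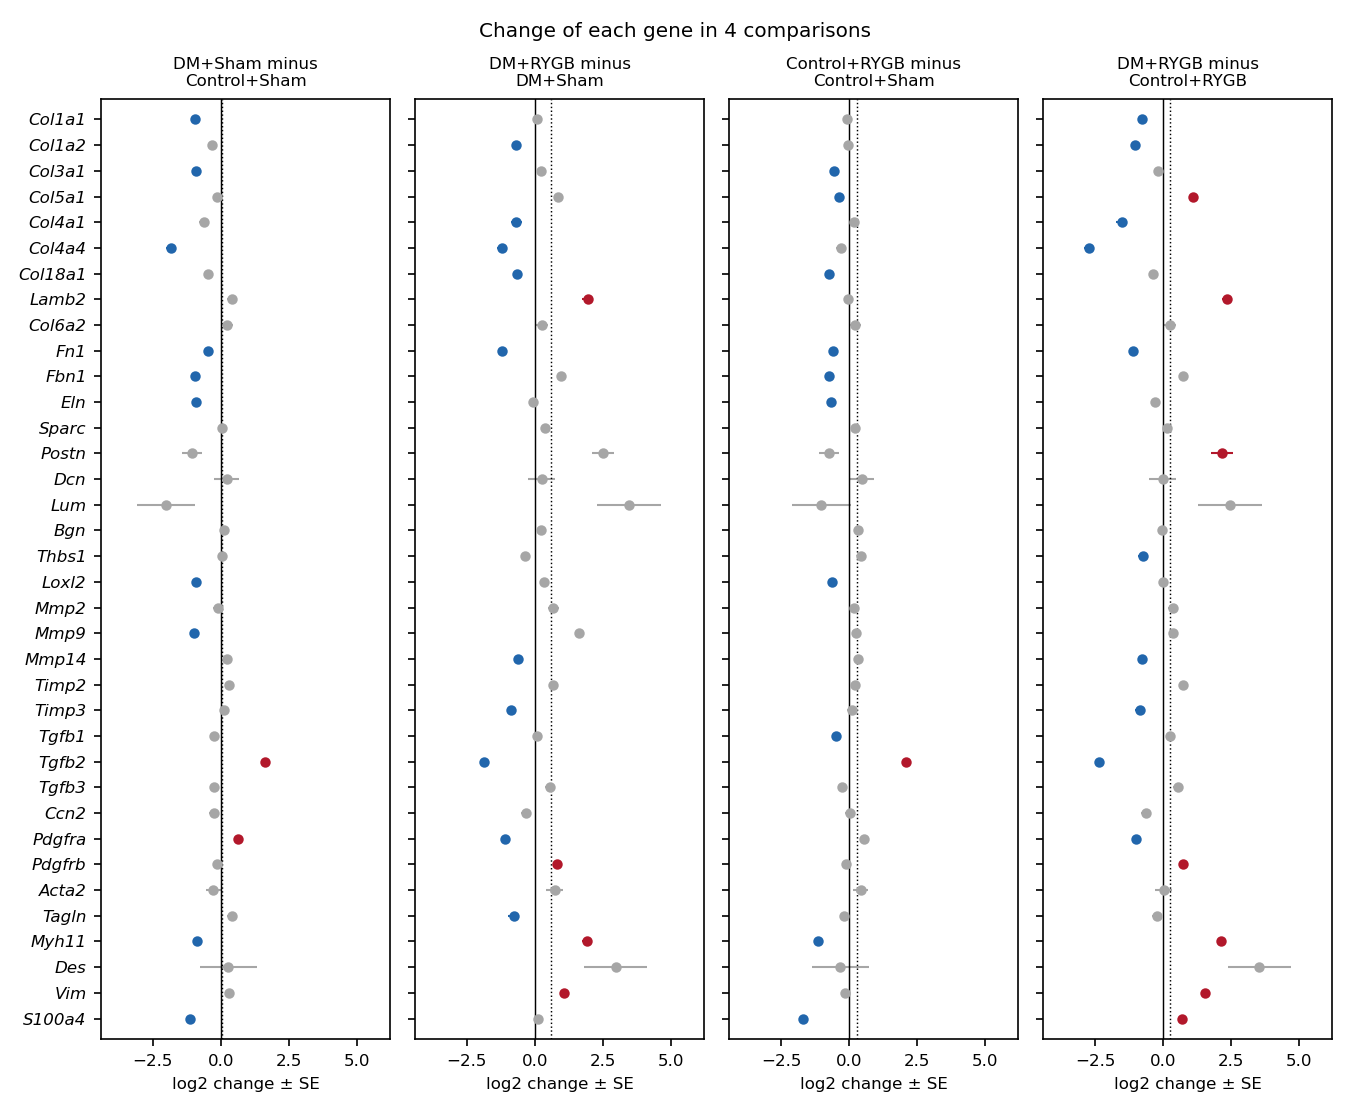
Log2 change ± SE (horizontal axis) of the 36 genes (vertical axis, by role) in 4 comparisons, each named above its panel with the solid line at 0 and the dotted line at the median of all genes tested. Red points rose, blue points fell and grey points were not called. With RYGB in diabetic rats, Lamb2, Pdgfrb, Myh11 and Vim rose, and Lum and Des have the widest errors.

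Fn1, Fbn1 and Eln, 3 of the 4 genes of the microfibrillar and related matrix, fell both with diabetes in sham rats and with RYGB in control rats, which share their Control+Sham samples. Fn1 encodes fibronectin, which links collagens to integrins on the cell surface. Probe A_44_P681660 read 0.87 and 0.67 in DM+RYGB, 1.97, 2.03 and 2.03 in DM+Sham, 1.92, 1.86 and 1.87 in Control+RYGB, and 2.46, 2.55 and 2.38 in Control+Sham. Control+Sham lay highest, DM+Sham and Control+RYGB lower, and DM+RYGB lowest. Fn1 fell by 0.47 (SE 0.11, adjusted p 0.0328) with diabetes in sham rats, by 1.23 (SE 0.12, adjusted p 0.000832) with RYGB in diabetic rats, by 0.57 (SE 0.11, adjusted p 0.0155) with RYGB in control rats and by 1.12 (SE 0.12, adjusted p 0.00126) with diabetes in RYGB rats. Its interaction was -0.65 (SE 0.16, adjusted p 0.0318). The calls for diabetes in sham rats and for the interaction were lost without Control+Sham 1, 2 or 3 in turn. The call for RYGB in control rats was lost without Control+Sham 1 or 2. These calls also depended on samples of other groups. Leaving out such a sample leaves 1 in its group, so only sizes are given. Over all leave-outs the changes were -0.509 to -0.423 with diabetes in sham rats and -0.616 to -0.53 with RYGB in control rats. The interaction was -0.756 to -0.552.

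The second Fn1 probe, A_64_P077570, read -2.77 and -2.85 in DM+RYGB, -2.62, -2.56 and -2.59 in DM+Sham, -2.81, -2.72 and -2.81 in Control+RYGB, and -2.33, -2.07 and -2.34 in Control+Sham. It was also highest in Control+Sham, but the other groups lay close together. It passed only with RYGB in control rats, at -0.54, and its change with RYGB in diabetic rats was -0.21. Fibronectin is made in several spliced forms, and which form a probe reads was not settled here.

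Fbn1 encodes fibrillin 1, the core of microfibrils that hold latent transforming growth factor beta. It read -3.81 and -3.69 in DM+RYGB, -4.73, -4.73 and -4.69 in DM+Sham, -4.49, -4.47 and -4.51 in Control+RYGB, and -3.74, -3.78 and -3.76 in Control+Sham. It was lower in DM+Sham and Control+RYGB, and DM+RYGB lay at the level of Control+Sham. Fbn1 fell by 0.96 (SE 0.091, adjusted p 0.00127) with diabetes in sham rats and by 0.73 (SE 0.091, adjusted p 0.0047) with RYGB in control rats. Its interaction was 1.70 (SE 0.14, adjusted p 0.000811). The change with RYGB in diabetic rats was 0.97, which is 0.40 above the median of all genes. With quantile scaling it was 0.18 and did not pass, while the change with diabetes in sham rats was -0.94. The level of DM+RYGB therefore did not match Control+Sham under that scaling.

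Eln (elastin, the elastic core of vessel walls) read -0.74 and -0.57 in DM+RYGB, -0.68, -0.53 and -0.52 in DM+Sham, -0.38, -0.31 and -0.31 in Control+RYGB, and 0.35, 0.36 and 0.28 in Control+Sham. It was lower in every group than in Control+Sham. Eln fell by 0.93 (SE 0.11, adjusted p 0.00259) with diabetes in sham rats and by 0.67 (SE 0.11, adjusted p 0.00931) with RYGB in control rats. Its second probe, A_43_P15663, read -5.45 and -5.70 in DM+RYGB, -6.40, -7.03 and -7.15 in DM+Sham, -5.85, -6.42 and -6.28 in Control+RYGB, and -6.41, -6.31 and -5.96 in Control+Sham. It was highest in DM+RYGB and was called in no comparison, with changes of -0.52 with diabetes in sham rats, 0.13 with RYGB in control rats and 1.17 with RYGB in diabetic rats. Col6a2, of the beaded filament collagen VI, was not called in any comparison, with changes of 0.23 to 0.25.

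The 6 matricellular proteins and small proteoglycans were called least. With limma none was called with diabetes in sham rats, with RYGB in diabetic rats or with RYGB in control rats, where 1, 3 and 3 of the 6 had an unadjusted p under 0.05. With diabetes in RYGB rats, 1 rose and 1 fell. Thbs1, or thrombospondin 1, an activator of latent transforming growth factor beta, read -2.58 and -2.84 in DM+RYGB, -2.27, -2.44 and -2.39 in DM+Sham, -1.87, -2.03 and -2.02 in Control+RYGB, and -2.37, -2.20 and -2.57 in Control+Sham. It was low in DM+RYGB and highest in Control+RYGB. Thbs1 fell by 0.76 (SE 0.16, adjusted p 0.0149) with diabetes in RYGB rats, with an interaction of -0.80 (SE 0.22, adjusted p 0.0455). Postn, or periostin, a collagen-binding protein of injured tissue, read -5.89 and -4.47 in DM+RYGB, -7.61, -7.72 and -7.75 in DM+Sham, -7.29, -7.36 and -7.42 in Control+RYGB, and -6.57, -6.46 and -6.81 in Control+Sham. Both DM+RYGB arrays lay above all others, the second by far. Postn rose by 2.16 (SE 0.41, adjusted p 0.00915) with diabetes in RYGB rats, 1.89 above the median of all genes, and its interaction was 3.22 (SE 0.56, adjusted p 0.00956). Neither was called without Control+Sham 1 or without Control+Sham 2, and both calls depended on each DM+Sham and Control+RYGB sample too. Leaving out 1 sample at a time, the change with diabetes in RYGB rats was 1.45 to 2.865 and the interaction 2.509 to 3.923. The Postn probe is dim.

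The proteoglycans Lum (lumican) and Dcn (decorin), which bind collagen fibrils, and Des (desmin, the intermediate filament of muscle) were not called, and they set the 2 DM+RYGB arrays apart. Lum read -7.13 and -2.86 in DM+RYGB, -8.56, -8.22 and -8.46 in DM+Sham, -7.47, -7.39 and -7.49 in Control+RYGB, and -6.42, -6.53 and -6.35 in Control+Sham. Des read -1.28 and 2.91 in DM+RYGB, -2.14, -2.12 and -2.16 in DM+Sham, -2.66, -2.79 and -2.77 in Control+RYGB, and -2.37, -2.38 and -2.45 in Control+Sham. Dcn read -0.10 and 1.66 in DM+RYGB, 0.48, 0.58 and 0.57 in DM+Sham, 0.76, 0.82 and 0.85 in Control+RYGB, and 0.34, 0.23 and 0.39 in Control+Sham. In each of the 3, DM+RYGB 2 was the highest of all arrays, while DM+RYGB 1 was within the range of the other groups for Lum, below all others for Dcn, and second for Des. The changes with RYGB in diabetic rats were 3.45 (SE 1.17, adjusted p 0.044) for Lum and 2.96 (SE 1.15, adjusted p 0.0659) for Des.

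The same array carried signal of heart muscle markers. Their summed level was 1.1 on DM+RYGB 1 and 313 on DM+RYGB 2, against 0.649 to 0.657 in DM+Sham, 0.587 to 0.876 in Control+RYGB and 0.47 to 0.489 in Control+Sham. With RYGB in diabetic rats, limma called 0 of the 10 markers, as they were high on 1 of the 2 arrays, and 6 had an unadjusted p under 0.05. Skeletal muscle markers summed to 0.91 and 12.7 in DM+RYGB, against 0.3 to 0.577 in the other groups. The part of these markers in the values of Des, Lum, Dcn and Postn was not tested. Bgn (biglycan, a small proteoglycan) and Sparc (osteonectin, a collagen-binding protein) changed by -0.028 to 0.36 over the first 4 comparisons, not called in any. The second Bgn probe, also never called, changed by -0.49 with diabetes in sham rats and -0.32 with RYGB in control rats. There the probe that stood for Bgn gave 0.10 and 0.34. The second probe changed by 0.46 with RYGB in diabetic rats and 0.28 with diabetes in RYGB rats.

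**Figure D4:**
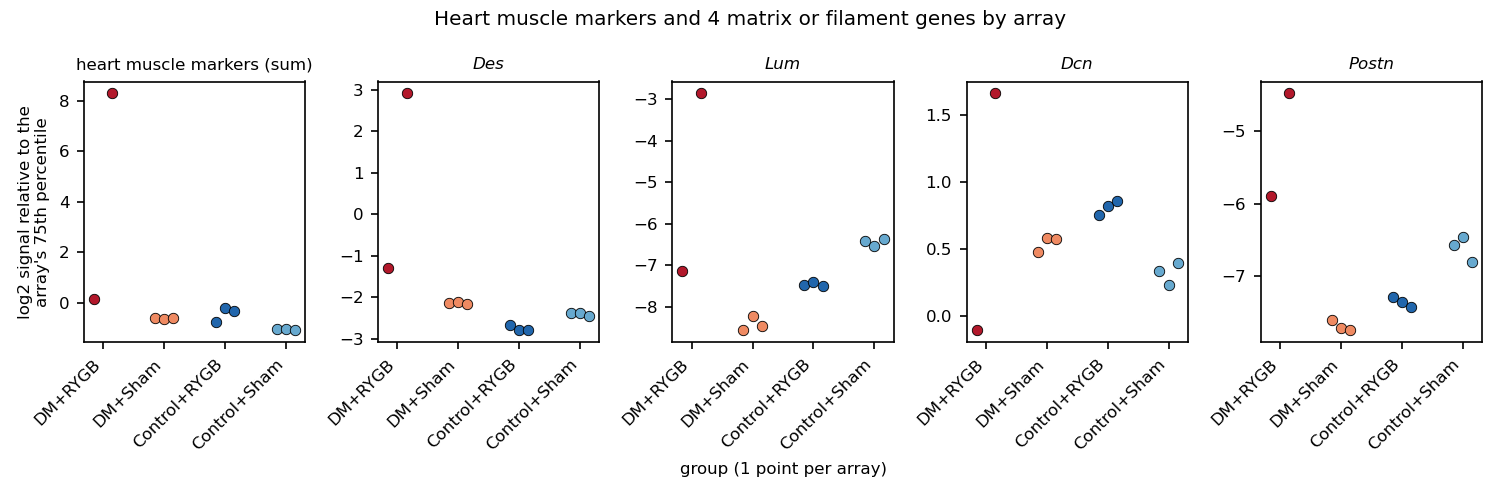
Log2 of the summed signal of 10 heart muscle markers (left) and log2 signal of Des, Lum, Dcn and Postn, all relative to the 75th percentile of the array, with 1 point per array in each group. DM+RYGB 2 is the highest array in each panel and stands well above DM+RYGB 1.

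Of the 6 crosslinking and turnover genes, 2 fell with diabetes in sham rats and 2 others with RYGB in diabetic rats. Loxl2, a lysyl oxidase that crosslinks collagen, read -2.01 and -2.15 in DM+RYGB, -2.43, -2.39 and -2.34 in DM+Sham, -2.07, -2.09 and -2.15 in Control+RYGB, and -1.57, -1.33 and -1.54 in Control+Sham. It was highest in Control+Sham. Loxl2 fell by 0.92 (SE 0.12, adjusted p 0.00367) with diabetes in sham rats and by 0.61 (SE 0.12, adjusted p 0.0148) with RYGB in control rats, with an interaction of 0.93 (SE 0.17, adjusted p 0.0116). Mmp9, a gelatinase that cuts type IV collagen, read -5.63 and -5.92 in DM+RYGB, -7.38, -7.49 and -7.24 in DM+Sham, -6.13, -6.10 and -6.20 in Control+RYGB, and -6.46, -6.41 and -6.28 in Control+Sham. DM+Sham stood lowest. Mmp9 fell by 0.99 (SE 0.12, adjusted p 0.0032) with diabetes in sham rats, and its interaction was 1.36 (SE 0.18, adjusted p 0.00392). With quantile scaling the interaction was 0.71. The probe is dim, though well above background on all 11 arrays, and its differences are limited by the signal over background.

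Mmp14, the membrane-bound protease that activates Mmp2, read 0.35 and 0.38 in DM+RYGB, 1.01, 0.99 and 1.00 in DM+Sham, 1.06, 1.19 and 1.21 in Control+RYGB, and 0.76, 0.73 and 0.89 in Control+Sham. It was lowest in DM+RYGB and fell by 0.64 (SE 0.11, adjusted p 0.00466) with RYGB in diabetic rats and by 0.77 (SE 0.11, adjusted p 0.0034) with diabetes in RYGB rats. Its interaction was -0.97 (SE 0.15, adjusted p 0.0067). Timp3, an inhibitor of matrix proteases that is itself bound to the matrix, read -0.23 and -0.69 in DM+RYGB, 0.38, 0.47 and 0.44 in DM+Sham, 0.43, 0.35 and 0.38 in Control+RYGB, and 0.31, 0.41 and 0.18 in Control+Sham. It too was low in DM+RYGB only. Timp3 fell by 0.88 (SE 0.17, adjusted p 0.00652) with RYGB in diabetic rats and by 0.86 (SE 0.17, adjusted p 0.0106) with diabetes in RYGB rats, with an interaction of -0.97 (SE 0.23, adjusted p 0.0267). Mmp2, a gelatinase, and Timp2, its partner, were not called, with changes of 0.67 and 0.67 with RYGB in diabetic rats.

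The contractile and mesenchymal cytoskeletal genes gave 2 of the 4 rises with RYGB in diabetic rats and 3 of the 7 with diabetes in RYGB rats. Myh11 encodes the myosin heavy chain of smooth muscle. Probe A_64_P030190 read 0.50 and 0.091 in DM+RYGB, -1.61, -1.57 and -1.61 in DM+Sham, -1.87, -1.84 and -1.82 in Control+RYGB, and -0.70, -0.60 and -0.84 in Control+Sham. It was highest in DM+RYGB, lower in Control+Sham and lowest in DM+Sham and Control+RYGB, without overlap. Myh11 rose by 1.90 (SE 0.16, adjusted p 0.000571) with RYGB in diabetic rats, 1.33 above the median of all genes, and by 2.14 (SE 0.16, adjusted p 0.000385) with diabetes in RYGB rats, 1.87 above it. It fell by 0.89 (SE 0.14, adjusted p 0.00981) with diabetes in sham rats and by 1.13 (SE 0.14, adjusted p 0.0051) with RYGB in control rats. The interaction was 3.03 (SE 0.21, adjusted p 0.000602).

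The second Myh11 probe, A_64_P137375, read -1.70 and -2.36 in DM+RYGB, -4.42, -4.54 and -4.49 in DM+Sham, -4.09, -4.42 and -4.41 in Control+RYGB, and -3.36, -3.43 and -3.66 in Control+Sham. It was called in all 5 comparisons, in the same directions, with changes of -0.98, 2.43, -0.77 and 2.22 in the first 4. In bulk tissue, fewer cells of a type and less RNA per cell cannot be told apart.

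The summed level of markers of urothelium, the lining of the renal pelvis, followed a like order over the groups. It was 4.55 and 5.46 in DM+RYGB, 1.55 to 1.65 in DM+Sham, 1.71 to 1.91 in Control+RYGB and 3.27 to 3.49 in Control+Sham. Single markers did not all follow it. Of 8 measured markers, 3 rose and none fell with RYGB in diabetic rats, and the same counts held with diabetes in RYGB rats. With diabetes in sham rats 6 fell and none rose, and with RYGB in control rats 6 fell and 1 (Trp63, at 0.52) rose. Upk3a (uroplakin 3a), well above background on every array, fell by 4.27 (adjusted p 0.000338) and by 3.55 (adjusted p 0.000942) in the latter comparisons. In DM+Sham, 0 of 3 arrays had Krt15 well above background and 1 had Upk2. In DM+RYGB, 1 of 2 arrays had Krt15 and 1 had Upk2, against 3 of 3 for both in Control+Sham. In Control+RYGB, 1 of 3 had Krt15 and 3 had Upk2. Actg2 is the enteric smooth muscle actin, which the wall of the pelvis also holds. It fell by 2.79 (adjusted p 8.47e-05) with diabetes in sham rats and by 2.90 (adjusted p 0.000108) with RYGB in control rats. It rose by 1.31 (adjusted p 0.00091) with RYGB in diabetic rats. Markers of mesothelium and capsule were also highest in DM+RYGB, with sums of 3.24 and 4.56, against 1.72 to 1.81 in DM+Sham, 2.33 to 2.49 in Control+RYGB and 1.68 to 1.83 in Control+Sham. Of these 5 markers, 4 rose and 1 fell with RYGB in diabetic rats. The share of these tissues in the change of Myh11 and the matrix genes was not tested.

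Vim (vimentin), the intermediate filament of mesenchymal cells and podocytes, read 0.60 and 0.72 in DM+RYGB, -0.51, -0.32 and -0.33 in DM+Sham, -0.84, -0.85 and -0.90 in Control+RYGB, and -0.72, -0.87 and -0.55 in Control+Sham. DM+RYGB lay above all others. Vim rose by 1.08 (SE 0.14, adjusted p 0.00191) with RYGB in diabetic rats, 0.51 above the median of all genes, and by 1.52 (SE 0.14, adjusted p 0.000797) with diabetes in RYGB rats, 1.25 above it. Its interaction was 1.22 (SE 0.19, adjusted p 0.00706). S100a4, a calcium-binding protein often used to mark fibroblasts, read 0.64 and 0.92 in DM+RYGB, 0.69, 0.65 and 0.65 in DM+Sham, 0.11, 0.076 and 0.050 in Control+RYGB, and 1.82, 1.77 and 1.80 in Control+Sham. Control+Sham lay highest and Control+RYGB lowest. S100a4 fell by 1.12 (SE 0.11, adjusted p 0.00148) with diabetes in sham rats and by 1.71 (SE 0.11, adjusted p 0.000513) with RYGB in control rats, and it was higher in DM+RYGB than in Control+RYGB by 0.69 (SE 0.12, adjusted p 0.00699), 0.42 above the median of all genes. The interaction was 1.81 (SE 0.17, adjusted p 0.00123).

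Tagln (transgelin, an actin-binding protein of smooth muscle) read -1.15 and -1.68 in DM+RYGB, -0.66, -0.58 and -0.61 in DM+Sham, -1.13, -1.24 and -1.29 in Control+RYGB, and -1.03, -0.88 and -1.17 in Control+Sham. It fell by 0.79 (SE 0.19, adjusted p 0.0146) with RYGB in diabetic rats, where the change was -0.52 without DM+RYGB 2. Acta2, the smooth muscle alpha actin that marks myofibroblasts, was not called, with changes of -0.29, 0.73, 0.42 and 0.017 in the first 4 comparisons and an SE of 0.28 for the first.

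Other genes of the same pathways were read from lists. Of all genes tested, 13.2% were called with diabetes in sham rats and 23.9% with RYGB in diabetic rats. The share was 13.1% with RYGB in control rats and 19% with diabetes in RYGB rats. The list counts here and below stand beside these shares and are no result about a pathway as a whole. Of 18 other smooth muscle and mesangial genes, 7 rose and 1 fell with RYGB in diabetic rats, and 1 rose and 5 fell with RYGB in control rats. Myocd, or myocardin, the coactivator that switches on smooth muscle genes, rose by 2.27 (adjusted p 0.000847) with RYGB in diabetic rats and fell by 1.37 (adjusted p 0.00714) with diabetes in sham rats. Cspg4 (NG2, of pericytes) rose by 1.05 (adjusted p 0.00141) with diabetes in RYGB rats and fell by 0.67 (adjusted p 0.00983) with RYGB in control rats. Gata3, a transcription factor of the collecting duct and mesangium, rose by 1.46 (adjusted p 0.0027) with RYGB in diabetic rats.

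Of 26 other genes of transforming growth factor beta signalling, 4 rose and 2 fell with diabetes in sham rats, 4 rose and 5 fell with RYGB in diabetic rats, 3 rose and 2 fell with RYGB in control rats, and 5 rose and 3 fell with diabetes in RYGB rats. Fst, or follistatin, which binds activin, fell by 3.53 (adjusted p 0.000786) with RYGB in diabetic rats and by 2.61 (adjusted p 0.00401) with RYGB in control rats. Tgif1, a corepressor of Smad proteins, fell by 2.14 (adjusted p 0.000364) with diabetes in RYGB rats and rose by 0.90 (adjusted p 0.00948) with RYGB in control rats. Acvrl1, a type I receptor of endothelium, and Ltbp3, a latent growth factor binding protein, rose by 1.42 (adjusted p 0.000509) and 1.54 (adjusted p 0.00118) with diabetes in RYGB rats. Among the 4 ligands of platelet-derived growth factor, Pdgfa fell by 0.60 (adjusted p 0.00863) with diabetes in sham rats and by 0.57 (adjusted p 0.0104) with RYGB in control rats.

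Of 21 other matrix proteases and inhibitors, none rose and 3 fell with diabetes in sham rats, whereas 6 rose and 3 fell with RYGB in diabetic rats. Mmp12, the macrophage elastase, fell by 2.21 (adjusted p 0.000365) with diabetes in sham rats and by 1.50 (adjusted p 0.00234) with RYGB in control rats. Mmp11 rose by 1.33 (adjusted p 0.00755) with RYGB in control rats and fell by 2.19 (adjusted p 0.000952) with diabetes in RYGB rats. Plaur (the urokinase receptor) and Adamts5 (which cuts aggrecan) rose by 1.70 (adjusted p 0.00125) and 1.16 (adjusted p 0.00141) with RYGB in diabetic rats.

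Of 23 other matrix proteins, 3 rose and 5 fell with RYGB in diabetic rats, and 7 rose and 2 fell with diabetes in RYGB rats. Spp1, or osteopontin, made by injured tubules, fell by 1.67 (adjusted p 0.00166) with RYGB in diabetic rats and by 2.46 (adjusted p 0.000605) with diabetes in RYGB rats. Fbn2 (fibrillin 2) and Ccn1 rose by 1.63 (adjusted p 0.00038) and 1.41 (adjusted p 0.000545) with RYGB in diabetic rats. Ccn3 fell by 0.87 (adjusted p 0.0021) with diabetes in sham rats and by 0.79 (adjusted p 0.0041) with RYGB in control rats.

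Of 15 collagen processing and crosslinking genes, 2 rose and 2 fell with diabetes in sham rats, and none rose and 2 fell with RYGB in diabetic rats. Tgm2 (transglutaminase 2, which crosslinks matrix proteins) fell by 1.01 (adjusted p 0.00516) with diabetes in sham rats. Plod2, a lysyl hydroxylase, fell by 0.88 (adjusted p 0.00337), and Loxl4, a lysyl oxidase, by 1.10 (adjusted p 0.00559) with RYGB in control rats. Loxl3, of the same family, rose by 1.14 (adjusted p 0.00187) with diabetes in RYGB rats. Of 9 other collagens, Col5a3 alone rose with RYGB in diabetic rats, by 1.90 (adjusted p 0.00197), and Col7a1 alone fell with diabetes in sham rats, by 0.83 (adjusted p 0.0155). Of 8 other basement membrane genes, none was called by limma with RYGB in diabetic rats, where 1 had an unadjusted p under 0.05. Lamb3, a laminin chain of epithelia, fell by 1.05 (adjusted p 0.016) with diabetes in sham rats and by 1.07 (adjusted p 0.0143) with RYGB in control rats.

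Leaving out 1 sample at a time, 8 of the 12 calls for diabetes in sham rats held throughout, 10 of the 14 for RYGB in diabetic rats, 2 of the 11 for RYGB in control rats (Tgfb2 and S100a4), 8 of the 17 for diabetes in RYGB rats and 6 of the 16 interactions. The 11 calls for RYGB in control rats became 2 without Control+RYGB 1, 3 without Control+RYGB 2 and 3, 6 without Control+Sham 1 and 7 without Control+Sham 2, and they became 17 without either DM+RYGB array. The 17 calls for diabetes in RYGB rats became 10 without Control+RYGB 1 and 8 without Control+RYGB 2 and 3. The 16 interactions became 6 to 10 without Control+Sham 1 or 2, either DM+Sham sample or either Control+RYGB sample. Within the scan days that held both groups, the direction of a called gene could not turn, since its groups did not overlap. Of 72 such differences, 70 lay within 1.5 times of the fitted change, and on day 4 Col18a1 differed by -0.39 with RYGB in diabetic rats and Postn by 1.40 with diabetes in RYGB rats. For RYGB in control rats, which no day held in full, scan day as a block left 0 of the 11 calls with limma, with 10 of the 36 genes at an unadjusted p under 0.05. Calls of other comparisons were lost too: over all 5, the block kept 48 calls and lost 22. With normexp background correction of the raw signals, 1, 7, 0, 8 and 2 genes were called in the 5 comparisons, again with 10 at an unadjusted p under 0.05 for RYGB in control rats.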

How the data were processed

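Renal cortex RNA of 11 samples was labelled with 1 dye and read on 4 x 44K rat arrays, 1 array per sample. Spot signal intensities are the processed signals that the authors obtained from Agilent's extraction software (Feature Extraction 11.0.1.1, per the file headers), which subtracts background and scales nothing between arrays. The deposited table of log2 values (tools not given in the sources used here) had a median of 7.065 in every column and served as an alternative. The members and lists were chosen with earlier results of these data known, and so was the averaging of near-identical arrays.

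Control spots (1377 of 44254) were left out and spots of a probe averaged to 30367 probes. Of these, 18005 got 1 gene symbol through their accession and the RefSeq table, and 12362 none here. Log2 signal minus the array's 75th percentile over all other spots was analysed. No measured value of a gene needed a bound, and no probe was saturated. A probe was kept if 2 or more arrays had it well above background, and the brightest stood for a gene. The 36 measured genes have 44 probes. Levels of repeated spots were used to find near-identical arrays: DM+Sham 2 and 3 differed by a spread of 0.022 (spot noise 0.075 and 0.070) and Control+RYGB 2 and 3 by 0.053 (0.091 and 0.080).

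The model was limma's (version 3.58.1, R 4.3.3, lmFit then eBayes) with 4 groups, 9 samples and 5 residual degrees of freedom, and p-values were adjusted by Benjamini and Hochberg over 25805 genes, of which 14358 were named. All p-values are from limma. The fit was tested on simulated data. Values in every array were given for genes called at least once and for all probes of Tgfb2, Fn1 and Myh11, and up to 4 called genes of each pathway list were named by the smallest p. Between 77.7% and 93.5% of probes lay well above background on an array, and array 75th percentiles were 1540.6 to 4454 units. The number of arrays limits the precision. Promoters came from RefSeq (GRCr8), with an entry for 21 of the 36 genes.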

Additional observations from a re-analysis of the deposited data

Results flagged for a closer look

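The effect of RYGB differed between diabetic and control rats for 16 of the 36 genes, by limma's interaction test, where 15.6% of all genes differed. Each value is the log2 change with RYGB in diabetic rats minus that in control rats. It was positive for Col5a1 (1.22), Lamb2 (1.96), Fbn1 (1.70), Postn (3.22), Loxl2 (0.93), Mmp9 (1.36), Pdgfrb (0.89), Myh11 (3.03), Vim (1.22) and S100a4 (1.81). It was negative for Fn1 (-0.65), Thbs1 (-0.80), Mmp14 (-0.97), Timp3 (-0.97), Tgfb2 (-3.97) and Pdgfra (-1.64). Lamb2, Fbn1, Tgfb2, Pdgfra, Myh11 and S100a4 kept the call without each sample in turn.

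The second probes of Tgfb2 and Fn1 were not called for the interaction, at 0.47 and 0.33, whereas the second Myh11 probe was, at 3.21. For Postn, the 2 DM+RYGB arrays lay apart, and the higher was the array with heart muscle signal. All samples of Control+RYGB share a slide position, which the interaction cannot tell apart from the group.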

How the results depend on the processing

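Counts are genes called of 36, which were 12 for diabetes in sham rats, 14 for RYGB in diabetic rats, 11 for RYGB in control rats, 17 for diabetes in RYGB rats and 16 for the interaction. With normexp they were 1, 7, 0, 8 and 2 in that order, and with a demand for at least a 2-fold change 3, 6, 3, 8 and 8. With the 75th percentile alone, chosen after seeing the data, 23 were called for RYGB in diabetic rats. Scan day as a block left 0 for RYGB in control rats, array weights gave 19 for diabetes in sham rats and 18 for RYGB in control rats, and fits of only the groups compared gave 4 for RYGB in diabetic rats and 6 for diabetes in RYGB rats. Leaving out each sample gave 8 to 17, 10 to 21, 2 to 17, 8 to 25 and 6 to 20 calls, the interaction being called for 9 without DM+Sham 2 and 3. A group left with 1 sample was assumed to vary like the others. Tgfb2 turned to 0.20 with normexp and Col4a1 to 0.11 with the mean of its probes, both for RYGB in diabetic rats. Over 70 called changes, 1874 checks gave 1576 with the same call, 296 with the same direction but no call, and these 2 reversals. The checks with 1 scaling alone could not lose a call, since a call needed all 3, and each kept 70. Counting near-identical arrays as separate samples, without a scan day block, also kept 70. The pooled count is therefore no measure of robustness. Normexp kept 18 of the 70 calls and the demand for a 2-fold change kept 28. Among the 3 scalings, quantiles moved Col5a1 (-0.81), Fbn1 (-1.10) and Tgfb1 (-1.06) with RYGB in control rats, Col5a1 (0.70) with diabetes in RYGB rats and the interaction of Mmp9 (0.71) by over 1.5 times, and the median moved Pdgfrb (0.47) with RYGB in diabetic rats. The cause of these differences was not tested.

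Deviations of same-numbered arrays from their group means correlated at -0.38 to 0.45. With 2 or 3 arrays in a group, and 2 near-identical pairs, this cannot settle whether the replicate number pairs the samples. With that number as a block over 11 separate arrays, 16, 17, 12, 22 and 19 genes were called. The deposited table gave 13, 18, 11, 19 and 18. Random slide blocks could not be fitted. Dim probes, such as both of Tgfb2 and those of Tgfb1, Mmp9, Postn and Lum, are limited by their signal over background.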
